A study of Mus musculus with 6 samples.

Results

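The contractile and actin cytoskeleton genes are 43 named genes that build, cross-link, bind or move actin filaments, together with the intermediate filament genes Des and Vim and the transcription factor gene Srf. They were taken by symbol from the deposited gene counts, in which all 43 were found among 53801 genes, and all 43 passed the filter on low counts that left 14816 genes for testing. The study set Ythdf1 knockout against wild type in adipocytes made in culture from the stromal vascular fraction, which holds precursor and other cells left when fat cells are removed, of mouse inguinal white adipose tissue. Both genotypes had been induced to form adipocytes for 4 days, and each is represented by 3 libraries that the series calls biological replicates. The labels name no strain, sex, age, allele or deleted exon, and do not say whether cells of several mice were pooled. Total counts per library lay between 16619605 and 20089138. A level of 3 counts, taken as the floor of detection, equalled 0.146 to 0.185 CPM (counts scaled to library size), and floors cover counting error only. Ythdf1 itself, which encodes a reader of m6A-modified RNA, was counted 820, 754 and 892 times in knockout replicates 1 to 3, against 1114, 1005 and 1056 times in wild type. Its log2 fold change was -0.50 ± 0.08 (SE; edgeR adjusted p = 0.000378), so most of its transcript signal remained, and counts over the whole gene check the labels only in part.

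Actin is made from several genes. Beta and gamma cytoplasmic actin are found in nearly every cell, whereas the alpha and gamma smooth muscle actins, with calponin, transgelin, smooth muscle myosin and their partners, are raised in smooth muscle cells, pericytes and myofibroblasts. Many of these genes carry CArG boxes, to which the factor SRF binds together with the cofactors MRTF and myocardin, and MRTF enters the nucleus when the pool of free actin monomer falls. In fat, precursor cells lose stress fibres and smooth muscle actin as they round up and store lipid.

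Most of the actin cytoskeleton genes were lower in the knockout, and the median fall was larger for smooth muscle than for general members. Not every smooth muscle member fell further. Tpm2, Csrp1 and Synpo2 (log2 fold changes -1.48, -0.82 and -0.40) fell less than the general genes Fhl2 (-1.54) and Actn1 (-1.52), and Smtn did not fall. Of the 43 members, 38 fell and 1, Fhl1, rose at an edgeR adjusted p under 0.05, while 4 (Vcl, Vim, Srf and Smtn) did not pass. Across all 14816 genes tested, 44.3% passed in either direction, 21.7% lower and 22.6% higher in knockout. Among the 9288 genes with a mean of at least 10 CPM, 24.7% were lower. For 37 members every knockout library lay below every wild-type library, a pattern found in 27.3% of all genes tested, while groups were apart in either direction in 55.2%. A fall of at least 1 on the log2 scale was called for 21 members, against 6.69% of all genes. The median log2 fold change was -1.82 over the 12 smooth muscle members and -0.74 over the 23 general members, beside 0.01 over all genes tested. Together the 43 genes held 9507 to 10763 CPM in the knockout libraries and 15095 to 17798 CPM in wild type, so the groups did not overlap. In these bulk samples, fewer cells of a type and less RNA of a gene per cell cannot be told apart.

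**Figure D1:**
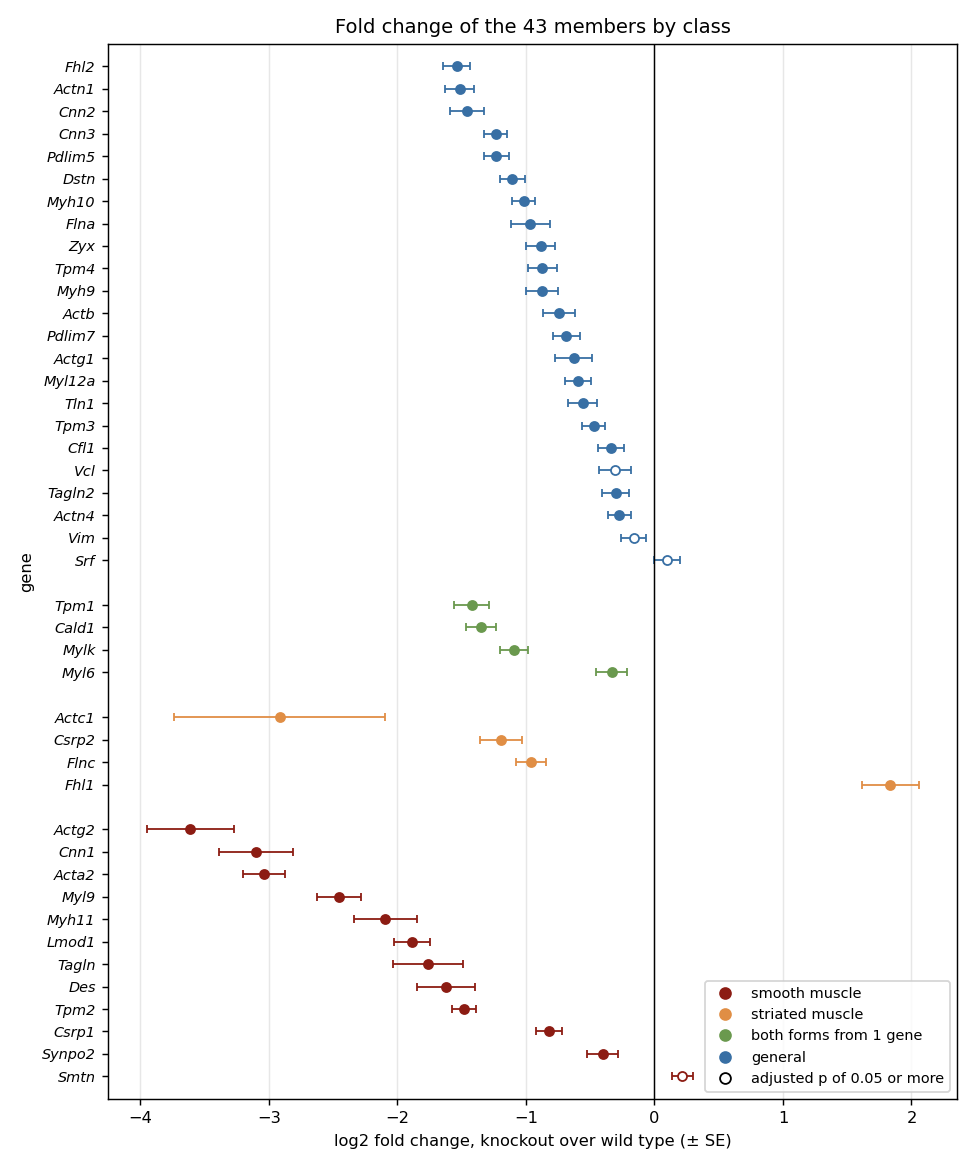
Log2 fold change, knockout over wild type, with its standard error for each of the 43 members, grouped by class; open symbols did not pass an adjusted p of 0.05. Smooth muscle members reach -3.61 (Actg2), general members reach -1.54 (Fhl2), and Fhl1 alone lies far to the right at 1.84.

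**Figure D2:**
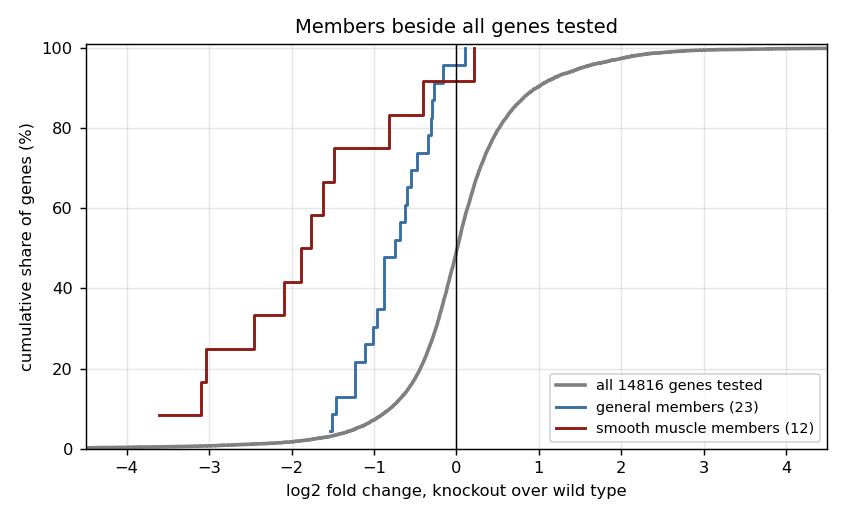
Cumulative share of genes (%) against log2 fold change for all 14816 genes tested, the 23 general members and the 12 smooth muscle members. The curve of all genes crosses the middle near 0.01, that of the general members at -0.74 and that of the smooth muscle members at -1.82.

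Because SRF sites are the known shared feature of this gene group, the 250 bases before the RefSeq start of each gene were searched for CArG boxes, a motif that reads the same on both strands. A start was listed for 38 members, and not for Actb, Actg2, Csrp2, Myh11 and Tagln. An exact CArG box was found for 9 of the 38 (23.7%), against 1.62% of all 27025 genes in that table, and a near match, with 1 inner base other than A or T, for 7 (18.4%) against 8.33%. The exact matches belonged to Actc1, Actg1, Cnn2, Myl6, Myl9 and Fhl2, which fell, to Vcl and Srf, which did not pass the test, and to Fhl1, which rose. A match is a description of the letters in this window and not evidence of binding. The sequences below are those of the most abundant smooth muscle actin gene, of a smooth muscle and a general gene that fell, of the member that rose and of Srf, each 5′ to 3′ on the gene's own strand in GRCm38.p6, with exact and near CArG boxes in capitals.
Acta2, chr19:34255374-34255623, minus strand: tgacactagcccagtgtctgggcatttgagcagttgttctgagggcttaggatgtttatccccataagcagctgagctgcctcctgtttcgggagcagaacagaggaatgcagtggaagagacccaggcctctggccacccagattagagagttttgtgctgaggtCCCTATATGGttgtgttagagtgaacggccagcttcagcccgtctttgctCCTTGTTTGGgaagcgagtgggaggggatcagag
Myl9, chr2:156775214-156775463, plus strand: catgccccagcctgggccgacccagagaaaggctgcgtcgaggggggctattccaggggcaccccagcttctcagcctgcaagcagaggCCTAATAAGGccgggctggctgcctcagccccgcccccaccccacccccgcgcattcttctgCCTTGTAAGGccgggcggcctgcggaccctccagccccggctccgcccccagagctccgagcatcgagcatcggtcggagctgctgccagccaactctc
Cnn2, chr10:79988350-79988599, plus strand: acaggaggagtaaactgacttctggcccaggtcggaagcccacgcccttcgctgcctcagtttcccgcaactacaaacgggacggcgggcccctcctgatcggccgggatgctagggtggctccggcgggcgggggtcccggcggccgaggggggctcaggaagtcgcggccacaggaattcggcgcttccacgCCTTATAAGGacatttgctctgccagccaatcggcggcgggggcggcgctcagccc
Fhl1, chrX:56779433-56779682, plus strand: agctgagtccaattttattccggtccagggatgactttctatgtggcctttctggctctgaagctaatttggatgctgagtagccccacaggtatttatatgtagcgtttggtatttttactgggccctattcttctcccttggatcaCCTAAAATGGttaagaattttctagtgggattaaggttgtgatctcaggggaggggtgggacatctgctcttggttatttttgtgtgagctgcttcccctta
Srf, chr17:46556163-46556412, minus strand: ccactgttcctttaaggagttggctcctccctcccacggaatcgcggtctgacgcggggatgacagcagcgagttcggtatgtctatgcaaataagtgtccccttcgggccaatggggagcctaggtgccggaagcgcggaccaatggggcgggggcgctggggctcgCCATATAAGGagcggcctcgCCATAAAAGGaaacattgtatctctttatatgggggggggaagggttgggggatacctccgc
The near matches of Acta2 began 84 and 34 bases before the listed start. In Myl9 the exact box began 161 and the near match 99 bases before it, and in Cnn2 the exact box began 56 bases before it. The exact boxes of Srf began 82 and 62 bases before the start. Fhl1 has 2 listed starts, and its box lay 102 bases before one of these. The window shown lies within the annotated Fhl1 gene (56731787 to 56793346), so this start is internal and not the 5′ end of the gene. The listed start of Acta2 is internal too. Most of its window, with both near matches, lies within the annotated Acta2 gene (34241090 to 34255590). The windows of Myl9, Cnn2 and Srf reach into the annotated gene by fewer bases, which hold none of their marked boxes.

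All 5 actin genes fell, beside 21.7% of all genes tested, with larger fold changes in the smooth muscle isoforms than in the cytoplasmic ones. Acta2 (ENSMUSG00000035783, chromosome 19, 34241090 to 34255590, minus strand), the alpha smooth muscle actin gene, was at 84.7, 80.7 and 105 CPM in knockout replicates 1 to 3, against 881, 757 and 584 CPM in wild-type replicates 1 to 3. The lowest wild-type library thus stood well above the highest knockout library, and the log2 fold change was -3.04 ± 0.16 (edgeR adjusted p = 5.58e-07). Actg2 (ENSMUSG00000059430, chromosome 6, 83512905 to 83536265), the gamma smooth muscle actin of gut and bladder muscle, was much scarcer, at 0.495, 1.14 and 1.02 CPM in knockout against 12.2, 13.7 and 6.92 CPM in wild type (log2 fold change -3.61 ± 0.34, edgeR adjusted p = 1.16e-05). Actb, the beta cytoplasmic actin gene, was at 875, 853 and 1064 CPM in knockout against 1766, 1513 and 1399 CPM in wild type. Its groups did not overlap either, but its log2 fold change was only -0.74 ± 0.13 (edgeR adjusted p = 0.000576). The gamma cytoplasmic actin gene Actg1 fell by 0.63 on the log2 scale (edgeR adjusted p = 0.00471).

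Actc1, the cardiac actin gene, was near the floor, with 6, 0 and 0 counts in knockout against 16, 11 and 17 in wild type. It passed the test (log2 fold change -2.92 ± 0.82, edgeR adjusted p = 0.0131), and without knockout replicate 1, the single knockout library with any count, the fitted value was -6.94, which depends on the fit's handling of zeros. Without knockout replicate 3 it was -2.30. Heart muscle genes did not move as one. The troponin gene Tnnt2 was at 0.184 ± 0.271 CPM (SD, n = 3) in knockout against 3.56 ± 1.53 CPM in wild type, and the atrial myosin gene Myh6 at 0.0733 ± 0.127 against 1.33 ± 0.580 CPM. The cardiac troponin gene Tnni3, at 4.07 ± 0.512 CPM in knockout against 3.89 ± 0.887 CPM in wild type, did not pass (log2 fold change 0.06, edgeR adjusted p = 0.854). Of 20 skeletal and cardiac muscle genes, 9 could be tested, of which 3 (Tnnt2, Myh6 and Actn3) were lower and 1, Myl1, higher. Among all genes tested, 21.7% were lower and 22.6% higher. The 20 genes summed to 16.3 ± 0.778 CPM in knockout against 26.3 to 43.6 CPM in wild type. The muscle regulators Myod1 and Myog had 0 counts in all 6 libraries, which allows up to 0.185 CPM. The lower calls in that list were 6 under DESeq2 and 7 without the filter on low counts, and 5 without knockout replicate 3 or wild-type replicate 2. Myl1 lost its call under DESeq2, with the replicate number as a block and without 4 of the single libraries (knockout 1 or 2, wild type 2 or 3).

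Counts divided by exon length allow levels to be compared between genes. On that scale the actin genes together fell from 1164 ± 179 CPM per kb in wild type to 542 ± 72.6 CPM per kb in knockout (SD, n = 3). Acta2 made up 29.8%, 29.9% and 26.9% of actin CPM per kb in wild-type replicates 1 to 3 and 7.57%, 7.48% and 7.63% in knockout replicates 1 to 3. Actb rose as a share, from 50.2 ± 2.19% to 64.1 ± 0.643%, and Actg1 from 20.3 ± 0.436% to 28.2 ± 0.585%, while the levels of both fell. The shares of the 3 knockout libraries were close to one another and far from those of the wild-type libraries. Actg2 took at most 0.765% of actin in any library, and Actc1 at most 0.0607%.

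**Figure D3:**
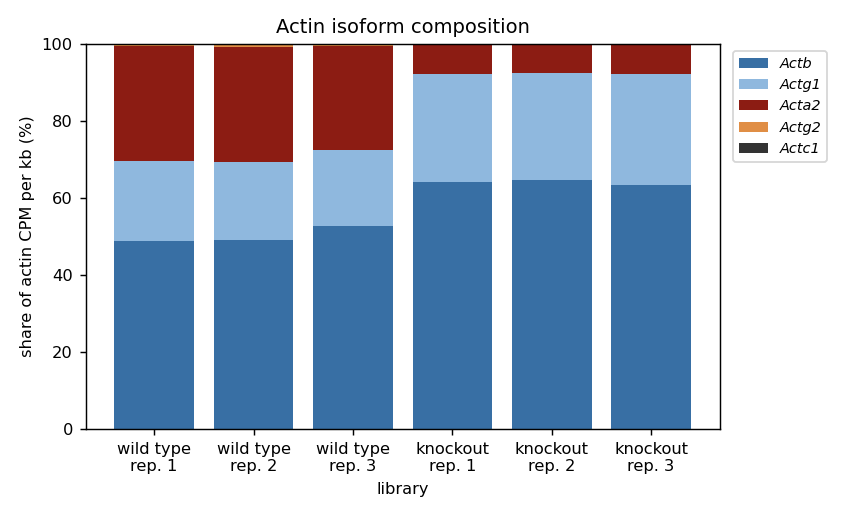
Share of summed actin CPM per kb (%) of each of 5 actin genes in the 6 libraries, as stacked bars. The Acta2 segment covers 26.9% to 29.9% in wild type and 7.48% to 7.63% in knockout; the segments of Actg2 and Actc1 are barely visible.

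Most of the thin filament proteins that sit along actin also fell. Cnn1 (ENSMUSG00000001349, chromosome 9, 22099216 to 22109630), the basic calponin of differentiated smooth muscle, was at 2.36, 1.99 and 1.07 CPM in knockout against 20.5, 13.6 and 12.2 CPM in wild type. Its log2 fold change was -3.10 ± 0.29 (edgeR adjusted p = 1.41e-05). The more widely expressed calponin gene Cnn2 was at 66.9, 74.5 and 84.6 CPM in knockout against 242, 209 and 172 CPM in wild type (log2 fold change -1.46 ± 0.13, edgeR adjusted p = 8.65e-06), and Cnn3 fell by 1.23 on the log2 scale. Both groups were separate in each of the 3 calponin genes. Tpm2 is a tropomyosin gene classed here as smooth muscle type. It was at 65.9, 70.8 and 69.3 CPM in knockout against 213, 186 and 176 CPM in wild type (log2 fold change -1.48 ± 0.09, edgeR adjusted p = 8.73e-07). Tpm1, from which muscle and non-muscle tropomyosins are spliced, was at 144, 144 and 163 CPM in knockout against 494, 383 and 331 CPM in wild type (log2 fold change -1.42 ± 0.14, edgeR adjusted p = 1.27e-05). Gene counts do not separate its splice forms, nor those of the other tropomyosin genes. Tpm4 and Tpm3, classed here as general, fell by 0.87 and 0.47 on the log2 scale.

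Cald1, which encodes both the smooth muscle and the non-muscle caldesmon, was one of the most abundant members, at 527, 483 and 606 CPM in knockout against 1474, 1405 and 1238 CPM in wild type. The log2 fold change of Cald1 was -1.35 ± 0.12 (edgeR adjusted p = 5.39e-06). Lmod1, the actin nucleator of smooth muscle, was at 6.49, 5.68 and 5.80 CPM in knockout against 24.0, 23.4 and 19.0 CPM in wild type (log2 fold change -1.88 ± 0.14, edgeR adjusted p = 1.85e-06). Smoothelin, encoded by Smtn and named for contractile smooth muscle, did not follow them. Smtn was at 66.2, 63.7 and 72.4 CPM in knockout against 59.2, 56.2 and 58.8 CPM in wild type. All knockout values were above the wild-type values, yet the gene did not pass (log2 fold change 0.22 ± 0.08, edgeR adjusted p = 0.0526), and without knockout replicate 2 it did (0.26, edgeR adjusted p = 0.0271). Gm11946 on the opposite strand shares 714 of the 4380 exon bases of Smtn.

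Tagln (ENSMUSG00000032085, chromosome 9, 45929619 to 45936058, minus strand), the transgelin or SM22 gene, was at 0.990, 1.48 and 1.46 CPM in knockout against 4.92, 4.94 and 3.54 CPM in wild type. It fell with separate groups (log2 fold change -1.76 ± 0.27, edgeR adjusted p = 0.000338), but its level was low beside that of Acta2: 2.25 against 337 CPM per kb in wild type. Of its 1988 exon bases, 1241 are also exon of Gm48529, an antisense gene on the opposite strand that had 14, 9 and 20 counts in knockout against 54, 18 and 11 in wild type. The strand setting of the counting is not given in the sources used here, reads over a shared stretch can be discarded or given to either gene, and the level of Tagln is therefore uncertain. The general paralog Tagln2 was at 178 ± 21.5 CPM in knockout against 219.7 ± 17.5 CPM in wild type, with overlapping groups and a log2 fold change of -0.30 (edgeR adjusted p = 0.0374). That call of Tagln2 ended with the replicate block and without knockout replicate 1 or 2 or wild-type replicate 1 or 2, at adjusted p-values of up to 0.173.

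Each of the 7 myosin genes was lower, the smooth muscle forms most, beside 21.7% lower among all genes tested. Myl9, the regulatory light chain of smooth muscle myosin (ENSMUSG00000067818, chromosome 2, 156775420 to 156781658), was at 12.7, 11.6 and 16.0 CPM in knockout against 91.6, 70.9 and 59.6 CPM in wild type. Its log2 fold change was -2.45 ± 0.17 (edgeR adjusted p = 4e-06), with a wide gap between the groups. Myh11, the smooth muscle myosin heavy chain (ENSMUSG00000018830, chromosome 16, 14194535 to 14291372), was at 2.31, 1.99 and 2.63 CPM in knockout against 11.99, 11.1 and 6.63 CPM in wild type (log2 fold change -2.09 ± 0.25, edgeR adjusted p = 4.75e-05). The main non-muscle heavy chain gene, Myh9, was at 718, 625 and 854 CPM in knockout against 1374, 1413 and 1242 CPM in wild type. Its fall was smaller but its groups were also apart (log2 fold change -0.87 ± 0.13, edgeR adjusted p = 0.000184). The other non-muscle heavy chain gene, Myh10, fell by 1.02, and Mylk, whose kinase phosphorylates the regulatory light chain and starts contraction, by 1.09 on the log2 scale. Myl12a, a general regulatory light chain gene, fell by 0.60, although 462 of its 3360 exon bases are shared with another annotated gene on the same strand and 207 with Myom1 on the other. The essential light chain gene Myl6 passed narrowly (log2 fold change -0.33, edgeR adjusted p = 0.0428). Its groups overlapped, and the call ended with the library name suffix as a covariate and without knockout replicate 1 or 3 or wild-type replicate 1 or 2, at adjusted p-values of up to 0.169.

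**Figure D4:**
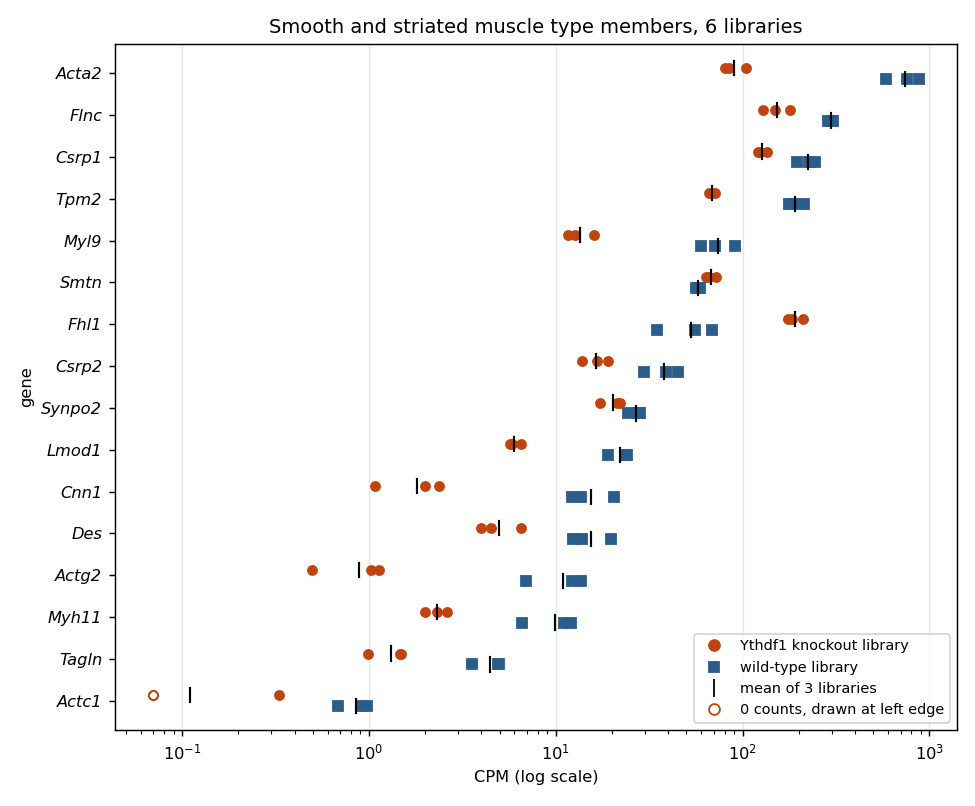
CPM on a log scale in each of the 6 libraries for 12 members classed here as smooth muscle type and 4 classed here as striated muscle type. The 4 are Actc1, Flnc, Csrp2 and Fhl1, and vertical ticks give the mean of 3 libraries. The class of Csrp2 is loose, since it is also a LIM protein gene of smooth muscle. Knockout libraries lie below wild type in all rows but those of Smtn and Fhl1; Acta2 runs from 80.7 to 105 CPM in knockout and from 584 to 881 CPM in wild type.

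Within gene families, the balance between muscle and general isoforms was compared in each library as a log2 ratio of CPM per kb. The ratio of Acta2 and Actg2 to Actb and Actg1 was -3.59 ± 0.01 in knockout against -1.26 ± 0.13 in wild type (SD, n = 3), a difference of -2.33. For Myl9 over Myl12a the difference was -1.86, for Cnn1 over Cnn2 and Cnn3 -1.79, for Tagln over Tagln2 -1.47, for Myh11 over Myh9 and Myh10 -1.17, and for Tpm2 over Tpm3 and Tpm4 -0.65. In these 6 families every knockout ratio lay below every wild-type ratio. The transgelin ratio shares the uncertainty in the level of Tagln given above. The tropomyosin ratio compares whole genes by their class here and does not separate muscle from non-muscle splice forms. The filamin family was the exception: the ratio of Flnc, the filamin of striated muscle, to Flna was -1.85 ± 0.08 in knockout and -1.86 ± 0.09 in wild type (SD, n = 3), and the groups overlapped. With 3 libraries against 3, the smallest 2-sided p of an exact permutation test is 0.10. The 6 separated families each gave that value (0.117 after Benjamini-Hochberg adjustment over 7 families) and filamin gave 1, so no family could pass 0.05. Sharing of reads between paralogs is limited in these families, since the longest identical run between any pair of actin transcripts is 62 bases and the longest in any family compared is 122 bases (Myh9 and Myh10), against reads of 150 bases.

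**Figure D5:**
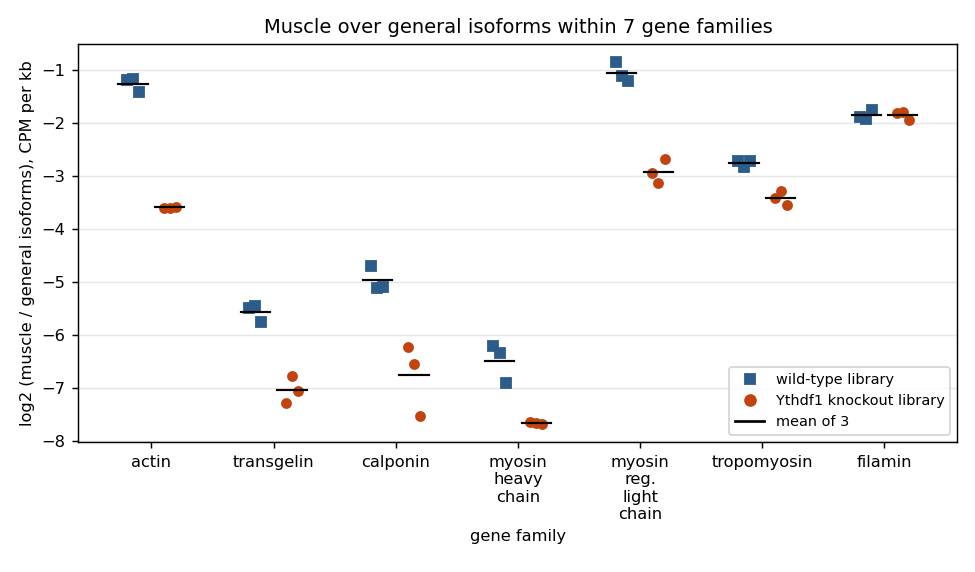
Log2 ratio of muscle to general isoforms (CPM per kb) in each library for 7 gene families, with horizontal lines for the mean of 3. Knockout ratios lie below wild-type ratios in 6 families, by 2.33 for actin and 0.65 for tropomyosin, and overlap with them for filamin.

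Of the 8 genes for proteins that cross-link actin or fasten it to adhesions, 7 fell, beside 21.7% of all genes tested. Their median log2 fold change was -0.72. Actn1, the alpha-actinin of stress fibres, had the largest fall among them, at 117, 119 and 141 CPM in knockout against 392, 373 and 314 CPM in wild type (log2 fold change -1.52 ± 0.11, edgeR adjusted p = 2.06e-06). Its paralog Actn4 fell by only 0.27 (edgeR adjusted p = 0.0284), and that call ended with the replicate block and without knockout replicate 1 or wild-type replicate 2 or 3, at adjusted p-values of up to 0.124. Flnc was at 149, 129 and 179.6 CPM in knockout against 305, 299.7 and 286 CPM in wild type (log2 fold change -0.96 ± 0.12, edgeR adjusted p = 5.92e-05). Flna, the general filamin, had the same log2 fold change of -0.96. Zyx, whose product zyxin marks tensed adhesions, fell by 0.88, and Tln1, whose product talin links integrins to actin, by 0.56 on the log2 scale. Vcl, the vinculin gene, was at 153 ± 27.6 CPM in knockout against 189 ± 14.4 CPM in wild type and did not pass (log2 fold change -0.31, edgeR adjusted p = 0.0699). It did pass without knockout replicate 3, under upper-quartile scaling, without the low-count filter and with the suffix covariate, and 2090 of its 8191 exon bases are shared with Ap3m1 on the other strand. Synpo2, an actin-bundling protein of smooth muscle Z-bodies, was at 21.2, 17.3 and 22.1 CPM in knockout against 27.8, 28.1 and 24.5 CPM in wild type. The groups of Synpo2 were apart by a small step (log2 fold change -0.40 ± 0.12, edgeR adjusted p = 0.0164), and without wild-type replicate 1 or 2 it no longer passed, at adjusted p-values of up to 0.0689.

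The actin-severing proteins differed in size of change. Dstn, the destrin gene, fell by 1.11 on the log2 scale (169 ± 5.08 against 364 ± 38.1 CPM, edgeR adjusted p = 6.31e-06). Cfl1, the non-muscle cofilin gene, fell by 0.34 (edgeR adjusted p = 0.0179), and its call ended without knockout replicate 1 or wild-type replicate 1 or 2, at up to 0.0995.

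The intermediate filaments split by type. Des, the muscle filament gene desmin, was at 3.96, 6.53 and 4.48 CPM in knockout against 19.8, 12.4 and 13.9 CPM in wild type (log2 fold change -1.62 ± 0.23, edgeR adjusted p = 0.000187). Vim, the vimentin gene of mesenchymal cells, was at 2053, 2242 and 2083 CPM in knockout against 2411, 2422 and 2296 CPM in wild type. Every knockout value of Vim lay below the wild-type values, but the difference did not pass (log2 fold change -0.16 ± 0.10, edgeR adjusted p = 0.21). Per kb, Vim was the most abundant member in knockout at 448 CPM per kb, and second to Actb in wild type at 501 against 582 CPM per kb.

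Srf, which encodes the factor that binds CArG boxes, did not pass the test, at 26.3, 24.4 and 26.9 CPM in knockout against 24.9, 22.7 and 24.9 CPM in wild type. The groups overlapped (log2 fold change 0.10 ± 0.10, edgeR adjusted p = 0.453). The LIM domain genes, several of whose proteins bind SRF or actinin, moved in both directions. Fhl2 was at 20.9, 19.4 and 17.9 CPM in knockout against 62.8, 53.7 and 52.6 CPM in wild type (log2 fold change -1.54 ± 0.10, edgeR adjusted p = 1.25e-06). Fhl1 (ENSMUSG00000023092, chromosome X, 56731787 to 56793346), its relative of striated muscle, was at 185, 209 and 175 CPM in knockout against 34.9, 55.5 and 68.9 CPM in wild type. The groups of Fhl1 were apart in the opposite direction (log2 fold change 1.84 ± 0.22, edgeR adjusted p = 0.000333). Csrp1, a smooth muscle LIM protein gene, was at 121, 123 and 135 CPM in knockout against 245, 227 and 196 CPM in wild type (log2 fold change -0.82 ± 0.10, edgeR adjusted p = 6.21e-05). Csrp2 is also a LIM protein gene of smooth muscle, but was classed here as striated muscle type and is not counted among the smooth muscle members. Csrp2 was at 16.7, 19.0 and 13.8 CPM in knockout against 44.9, 38.8 and 29.5 CPM in wild type (log2 fold change -1.196 ± 0.16, edgeR adjusted p = 0.000181). Pdlim5 and Pdlim7, which tie kinases to the actin cytoskeleton, fell by 1.23 and 0.69 on the log2 scale.

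Several genes of SRF cofactors changed. Of 7 cofactor genes listed, 6 were tested, 3 of which fell and 1 rose, with a median log2 fold change of -0.54. Among all genes tested, 21.7% were lower and 22.6% higher. Mrtfa, the actin-sensing cofactor, was at 28.5 ± 3.39 CPM in knockout against 53.7 ± 1.96 CPM in wild type (SD, n = 3; log2 fold change -0.91, edgeR adjusted p = 2.74e-05). Myocd, the muscle-restricted cofactor myocardin, had 4, 11 and 7 counts in knockout against 51, 34 and 49 in wild type (log2 fold change -2.71 ± 0.41, edgeR adjusted p = 0.000256). Elk3 fell by 0.73 and Elk4 rose by 0.38, both ternary complex factors that share SRF with the MRTF proteins. The call for Elk4 ended without knockout replicate 1 or wild-type replicate 1. Mrtfb missed the threshold (log2 fold change -0.35, edgeR adjusted p = 0.0571).

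Genes that control myosin and actin from upstream moved in both directions. Rock2, whose kinase promotes myosin contraction, fell by 0.91 on the log2 scale. Ppp1r14a, the myosin phosphatase inhibitor of smooth muscle, had a log2 fold change of -2.75, at 0.323 ± 0.0722 CPM in knockout against 2.20 ± 0.185 CPM in wild type. Limk1, whose kinase inactivates cofilin, rose by 1.41, and Ssh2, a phosphatase gene that reverses this, by 0.96. Of 36 actin assembly genes, 19 fell and 3 (Coro1b, Gsn and Arpc5l) rose, with a median of -0.24. Across all genes tested, 21.7% were lower and 22.6% higher. The actin monomer buffers Tmsb4x (183 ± 27.8 CPM in knockout, 419 ± 87.8 CPM in wild type) and Tmsb10 (428 ± 27.9 and 673 ± 42.7 CPM) fell, as did the formin gene Diaph3 (15.5 ± 3.14 and 34.2 ± 5.09 CPM). Coro1b, whose product binds the Arp2/3 complex, rose from 149 ± 7.47 to 253 ± 31.9 CPM. Most of these falls were small, and the 19 became 7 without knockout replicate 1 and 11 without wild-type replicate 1 or 2. Over all genes tested, the lower calls were 3219 of 14816 with all libraries and 2564 of 15209 without knockout replicate 1. They were 2634 of 15212 without wild-type replicate 1 and 2535 of 15279 without wild-type replicate 2.

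Of 22 focal adhesion genes, 16 fell and 1, Lims2, rose, with a median log2 fold change of -0.51. Among all genes tested, 21.7% were lower and 22.6% higher. The 4 with the smallest p-values were Tgfb1i1, an adhesion adaptor induced by TGF-beta (log2 fold change -1.10), Palld, an actin-binding scaffold (-1.23), the integrin subunit gene Itgb5 (-0.93) and Itga5, the fibronectin receptor subunit (-0.87). Myofibroblast and TGF-beta response genes, 15 in all, showed 11 falls and 1 rise, Tgfbr2, which was lost without knockout replicate 1. Their summed level was 18256 to 21491 CPM in knockout against 49840 to 51597 CPM in wild type. Ltbp2 fell by 2.96, Postn by 1.92, Lox by 1.76 and Cthrc1 by 1.10 on the log2 scale.

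Markers of the cells that could carry smooth muscle genes were measured beside the members. Of 14 other smooth muscle genes, 11 were tested, of which 7 fell (Nexn, Pgm5, Ppp1r14a, Myocd, Npnt, Speg and Itga8). Pericyte and vascular smooth muscle markers went both ways, with 5 of 12 tested higher (Cspg4, Steap4, Mcam, Cox4i2 and Vtn) and 3 lower (Pdgfrb, Rgs5 and Ndufa4l2). For both lists, the shares over all genes tested were 21.7% lower and 22.6% higher. Cspg4, or NG2, of pericytes was at 42.1 ± 5.78 CPM in knockout against 9.20 ± 1.68 CPM in wild type, and Mcam rose by 1.15, Steap4 by 1.85 and Cox4i2 by 0.45, while Pdgfrb fell by 0.55. Rgs5, a defining pericyte gene, had 9, 11 and 27 counts in knockout against 39, 47 and 23 in wild type, and Kcnj8, Higd1b, Heyl and Gja4 were too low to test. The 5 rises became 3 without knockout replicate 1 or 2 or wild-type replicate 1, and the 3 falls became 1 without knockout replicate 1 or wild-type replicate 2. Summed, these 16 markers held 1322 to 1331 CPM in knockout against 995 to 1166 CPM in wild type. That direction rested on Steap4, at 494 ± 16.2 CPM in knockout against 137 ± 36.1 CPM in wild type. Without it, a choice made after seeing the data, the other 15 summed to 811 to 852 CPM in knockout against 894 to 993 CPM in wild type. Most of that sum came in turn from Pdgfrb (292 ± 28.4 against 427 ± 25.0 CPM) and Ndufa4l2 (337 ± 26.8 against 406 ± 14.7 CPM), while Cspg4, Mcam, Cox4i2 and Vtn rose.

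Most gut epithelium genes tested, which do not belong to fat stroma, were lower in knockout, as were most smooth muscle members. Of 22 listed, 17 were tested and 15 were lower in knockout, beside 21.7% of all genes tested. The list came from earlier results of these same data, so this count was shaped by that choice and is no test. Pigr, the antibody carrier of mucosa, was at 0.450 ± 0.320 CPM in knockout against 7.46 ± 1.18 CPM in wild type, Epcam at 0.0677 ± 0.0737 against 3.83 ± 0.839 CPM, and Dmbt1 at 0.330 ± 0.289 against 15.5 ± 3.82 CPM. The sum over the list was 64.1 to 80.9 CPM in knockout against 133 to 160.0 CPM in wild type, of which Krt19, Muc2 and Lgals4 made up most in knockout. Of 14 genes of gut muscle and its nerves, 5 were tested. Ret (8.15 ± 1.33 CPM in knockout, 20.6 ± 0.630 CPM in wild type) and Foxf2 (log2 fold change -1.70) fell. Foxf1 (2.90 ± 0.401 and 3.40 ± 0.707 CPM), Hand2 (2.62 ± 1.32 and 3.14 ± 1.15 CPM) and Kit (2.31 ± 0.653 and 1.48 ± 0.419 CPM) were detected and did not pass. The other genes of the list were too low to test, among them Nkx2-3 with 1 count in each genotype, Barx1 with 0 and 3, and Hand1 with 0 in all 6 libraries, which allows up to 0.185 CPM. The list summed to 17.9 to 19.5 CPM in knockout against 32.9 to 38.7 CPM in wild type. Actg2, Des, Myh11, Cnn1 and Synpo2 are also genes of gut muscle, and the part of such RNA in their falls was not tested. Of 6 mesothelium genes, Wt1 and Krt19 could be tested and missed the threshold (edgeR adjusted p = 0.0992 and 0.653), and Msln, the defining one, had 12 counts in knockout against 32 in wild type.

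The makeup of the cultures differed between genotypes and also within them. All 11 adipocyte markers rose, beside 22.6% of all genes tested. Their sum was 40575 to 47851 CPM in knockout against 5569, 8756 and 9338 CPM in wild-type replicates 1 to 3. Scd1 was the largest part of that sum in knockout, at 24191 ± 856 CPM against 2686 ± 895 CPM in wild type (SD, n = 3). Macrophage markers summed to 268, 266 and 709.8 CPM in knockout replicates 1 to 3 and to 84.1 to 153 CPM in wild type. Among wild-type libraries, replicate 1, with the lowest adipocyte sum, was the highest of the 3 for 31 of the 43 members, and replicate 3, with the highest adipocyte sum, was the lowest for 34. Knockout replicate 3, with the lowest adipocyte and highest macrophage sum in its genotype, was the highest for 31 of the 43, and replicate 2, with the highest adipocyte sum, was the lowest for 22. The smooth muscle members summed to 1611, 1404 and 1162 CPM in wild-type replicates 1 to 3 and to 404 ± 28.1 CPM in knockout. The part of adipocyte or macrophage content in the members' falls was not tested.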

How the data were processed

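RNA-seq of 3 Ythdf1 knockout and 3 wild-type libraries was used, made from rRNA-depleted total RNA and read as pairs of 150 bases, per the labels' protocols. The authors deposited unnormalized read counts for Ensembl genes. STAR and featureCounts and the builds mm10 and GRCm38 are named in the submitters' processing notes. No source used here gives versions, annotation, strand setting or how multiply mapped reads were handled, so antisense and overlapping genes are uncertain. Column names equal the library names in the labels. Symbols, positions and exon lengths came from GENCODE mouse release 21 on GRCm38 (53706 of 53801 identifiers), and promoters from RefSeq on GRCm38.p6.

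Counts were tested with edgeR 4.0.16 (R 4.3.3): filterByExpr with minimum count 10 and minimum total 15, TMM scaling, robust quasi-likelihood F test with the legacy setting, 2-sided, genotype as the single term, and Benjamini-Hochberg adjustment over the 14816 genes tested, with 0.05 as threshold. CPM refers to the TMM-scaled totals of genes kept. CPM per kb divides by the summed exon length of all transcripts of a gene, which can exceed that of the transcript in use. The fit was tested on simulated data. Pseudogene copies matching a member at 90% identity or more (BLAST+) held at most 0.975% of the count of any member in a library. P-values refer to the spread between libraries called biological replicates and do not cover a difference in culture or preparation that coincided with genotype.

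Members, classes and marker lists were chosen with earlier results of these data known; the gut epithelium list in particular came from such results. Values per library are given by rule for the smooth and striated muscle members, Srf, the 4 other members with the largest falls and the 4 most abundant ones, and for each other list up to 4 genes with the smallest p. Other genes (among them Myl1, Nkx2-3, Barx1, Hand1, Hand2, Foxf1, Kit, Tnni3, Myod1, Myog, Rgs5, Kcnj8, Gsn, Arpc5l, Vtn, Cox4i2, Ndufa4l2, Lims2, Tgfbr2 and Msln) were added with their values in view. Some genes and lists are not reported here. Alternatives were RLE and upper-quartile scaling, DESeq2 1.42.0, a filter of 1 CPM in 3 libraries or none, a replicate block, the L0 or L1 suffix of library names as a covariate (its meaning is not stated), calls limited to log2 changes of 1 or more, and each library left out.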

Additional observations from a re-analysis of the deposited data

How the results depend on the processing

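With 1 library left out, between 33 and 38 members were lower and 1 or 2 higher. The smooth muscle class then had 10 or 11 lower and 0 or 1 higher, the second higher member being Smtn without knockout replicate 2. With the replicate number as a block, 36 members were lower, 18 of them general and 11 smooth muscle, and 1 was higher. Same-numbered libraries did not deviate together (correlations of -0.13, 0.01 and -0.14), so the numbers were not taken as pairs; every knockout library correlated better with a differently numbered wild-type library. The block left the isoform ratios as they were (-2.33 for actin), since both fits average the same 3 differences. Under the scaling, filter, suffix and DESeq2 alternatives 37 to 39 members were lower. A log2 fold change of at least 1 left 21 members lower, 7 of them general. Leaving out members with over 10% of exon bases shared with another gene, chosen after seeing the data, left 34 lower, 10 of them smooth muscle and 17 general. Of 558 recomputed member values, 534 kept direction and call, 19 lost and 5 gained the call, and none reversed. The actin ratio difference ran from -2.40 to -2.29 with 1 library left out. That of filamin, 0.0085 with all libraries, ran from -0.0263 to 0.0593 and changed sign without knockout replicate 1 (-0.011) or 2 (-0.0186) or wild-type replicate 1 (-0.0075) or 2 (-0.0263). Depth limits statements on Actc1, Myocd and the marker genes at or under 3 counts.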
